A study of Rattus norvegicus with 6 samples.

Results

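The potassium channel genes of the rat were followed through a 90 min block of GABA-A receptors in hippocampal cultures. Members were all probe sets (groups of short probes that read 1 transcript) whose single gene symbol in the platform annotation starts with Kcn, which gave 126 of 31099 probe sets. They stand for 75 of 14218 named genes, of which 44 had 1 probe set and 31 had several. The cultures were organotypic slices of hippocampus grown in roller tubes from Wistar pups, labelled P4 and given by the methods as postnatal day 4 to 5. The gabazine group (3 arrays) received 20 µM gabazine, a GABA-A receptor antagonist, for 90 min, and the control group (3 arrays) was left untreated. Each of the 3 replicas used slices of 2 littermates, some treated and some not, so that the arrays of 1 replica form a pair. A culture of this kind holds neurons, glia and other cells together, and the RNA was taken from all of them.

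Potassium channels let potassium leave or enter the cell and so set the resting potential, end the action potential and govern how often a neuron can fire. Voltage-gated channels are built of pore subunits of the Kcna, Kcnb, Kcnc, Kcnd, Kcnh and Kcnq subfamilies, joined by modifier subunits that form no channel alone and by auxiliary subunits that change gating or traffic to the membrane. Inward rectifiers (Kcnj) and two-pore leak channels (Kcnk) act near rest, and a further group opens with intracellular calcium or sodium. In hippocampal neurons the A-type current of Kcnd2 and its Kcnip partners and the M-current of the Kcnq subunits restrain firing.

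Values are log2 intensities after Robust Multi-array Average (RMA), and a log2 ratio compares both arrays of a pair, gabazine minus control. The effector gene Arc, known to follow neuronal activity, had 13.23, 11.66 and 13.23 on the gabazine arrays of pairs 1, 2 and 3 and 10.66, 9.60 and 9.52 on the control arrays. Pair 1 was the most dispersed, with an SD of the log2 ratio over all probe sets of 0.475, against 0.247 in pair 2 and 0.230 in pair 3. Array medians were 8.71, 7.89 and 8.68 in gabazine and 8.63, 7.90 and 8.71 in control cultures, in the order of the pairs. Pair 2 thus lay lower as a whole, and a level of 1 pair is not directly comparable with that of another. A probe set is called tied where both arrays of a pair hold the same value, and 61.9% of the potassium channel probe sets were tied in at least 1 pair, against 47.4% of all probe sets. A ratio of 0.00 below can be such a tie. Ties made up 16.1% to 25.7% of all probe sets within pairs and 0% between arrays of different pairs. Processing of each pair apart was not tested as their source, so a tie is not a measurement of no change. No detection measure was used here, so that how far a dim probe set lies above background is not known. Nothing in the labels gives a further batch. The p-values and standard errors rest on the spread between these 3 pairs alone, which the fit draws toward the spread typical of all probe sets.

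No potassium channel probe set passed the test after gabazine. With limma, a block for the pair and p-values adjusted for the whole array (Benjamini-Hochberg), 0 members were higher and 0 lower at an adjusted p under 0.05. The same held for 0% of all probe sets in each direction. The lowest adjusted p of a member was 0.747, and the lowest on the array was 0.4675. Arc, with a mean log2 ratio of 2.78, did not pass either (limma adjusted p 0.747). At an unadjusted p under 0.05, 1 member was higher, against 1.84% of all probe sets, and 0 were lower, against 2.68%. The 1 member was Kcnk1. No member had a mean log2 ratio above 1, which is 2-fold, while 0.315% of all probe sets did.

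Few members had 1 direction in all 3 pairs of the deposited values. The ratio was above 0 in all 3 pairs for 7 members (5.56%), against 6.92% of all probe sets. It was below 0 in all 3 pairs for 3 members (2.38%), against 9.49% of all probe sets. Among probe sets tied in no pair the shares were 7 of 48 members (14.6%) higher, against 13.2% of all such probe sets, and 3 of 48 (6.25%) lower, against 18.1%. These counts moved with the scaling of the arrays, which parts most ties. A parted tie takes its direction from the scaling and not from a measured difference, so the counts after scaling include such ties. Median centring, quantile normalization and cyclic loess gave 23, 17 and 25 of the 126 members higher in all pairs, against 14.9%, 10.8% and 17.0% of all probe sets. They gave 3, 13 and 2 members lower in all pairs, against 10.2%, 16.8% and 12.1%. Members higher throughout were probe sets of Kcnj4, Kcnj12, Kcnj15, Kcnk1, Kcnk3, Kcnh3 and Kcnv2, and members lower throughout were probe sets of Kcna2, Kcnc2 and Kcnip3. The mean of the 3 ratios was above 0 for 77 members, below 0 for 43 and exactly 0 for 6. Of all 31099 probe sets, 15266 had a mean above 0 and 14991 below 0, and the counts by role below stand beside these. The median of this mean was 0.02 over the members and 0 over all probe sets.

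**Figure D1:**
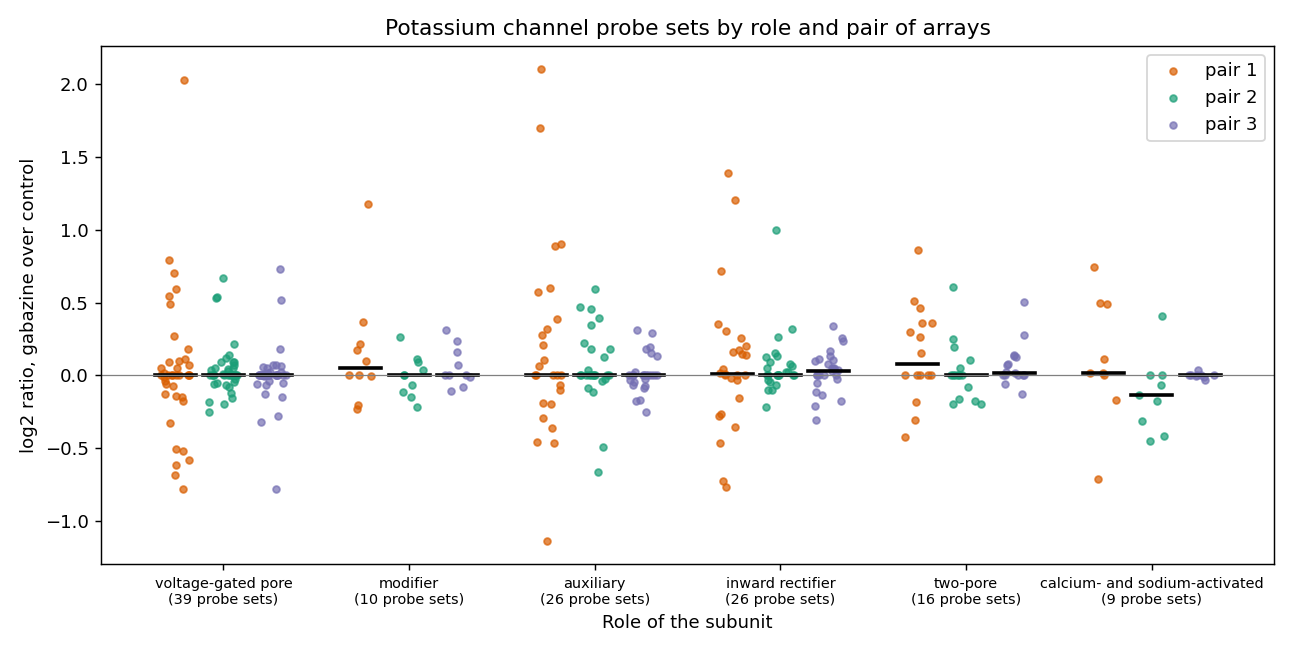
Log2 ratio of gabazine over control (vertical axis) of the 126 potassium channel probe sets, by the role of the subunit (horizontal axis) and by pair, with a point for each probe set and a black line at the median. Pair 1 spreads most, from -1.14 to 2.10, while pair 2 lies between -0.66 and 0.99 and pair 3 between -0.78 and 0.73.

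Changes past 2-fold were seen in pair 1 only. There 6 members (4.76%) had a log2 ratio above 1, against 4.07% of all probe sets, and these were probe sets of Kcnip2, Kcnc2, Kcnab2, Kcnj4, Kcnj9 and Kcns2. In pair 2 no member was above 1, against 0.685% of all probe sets, and in pair 3 none, against 0.318%. Below -1 stood 1 member in pair 1, a Kcnab1 probe set, against 1.11% of all probe sets. In pairs 2 and 3 no member was below -1, against 0.199% and 0.148% of all probe sets. Over the members, the ratios had an SD of 0.495, 0.217 and 0.161 in pairs 1, 2 and 3.

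Kcnk1 (TWIK-1), a two-pore leak channel, had the lowest p of all members. Its probe set 1369500_at had 8.64, 6.75 and 7.87 on the gabazine arrays of pairs 1, 2 and 3 and 7.77, 6.50 and 7.37 on the control arrays. Each gabazine array lay above its own control. The values of both groups overlapped across pairs, whose arrays differed in overall level, with pair 2 the lowest. The log2 ratios were 0.86, 0.25 and 0.51, with a mean of 0.54 (standard error 0.15), a fold of 1.45 and a limma adjusted p of 0.747. Its direction was the same in all 3 pairs under each of 3 other scalings of the arrays. It kept its unadjusted p under 0.05 under those scalings, and lost it in the fit without the pair and in each fit without 1 pair.

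**Figure D2:**
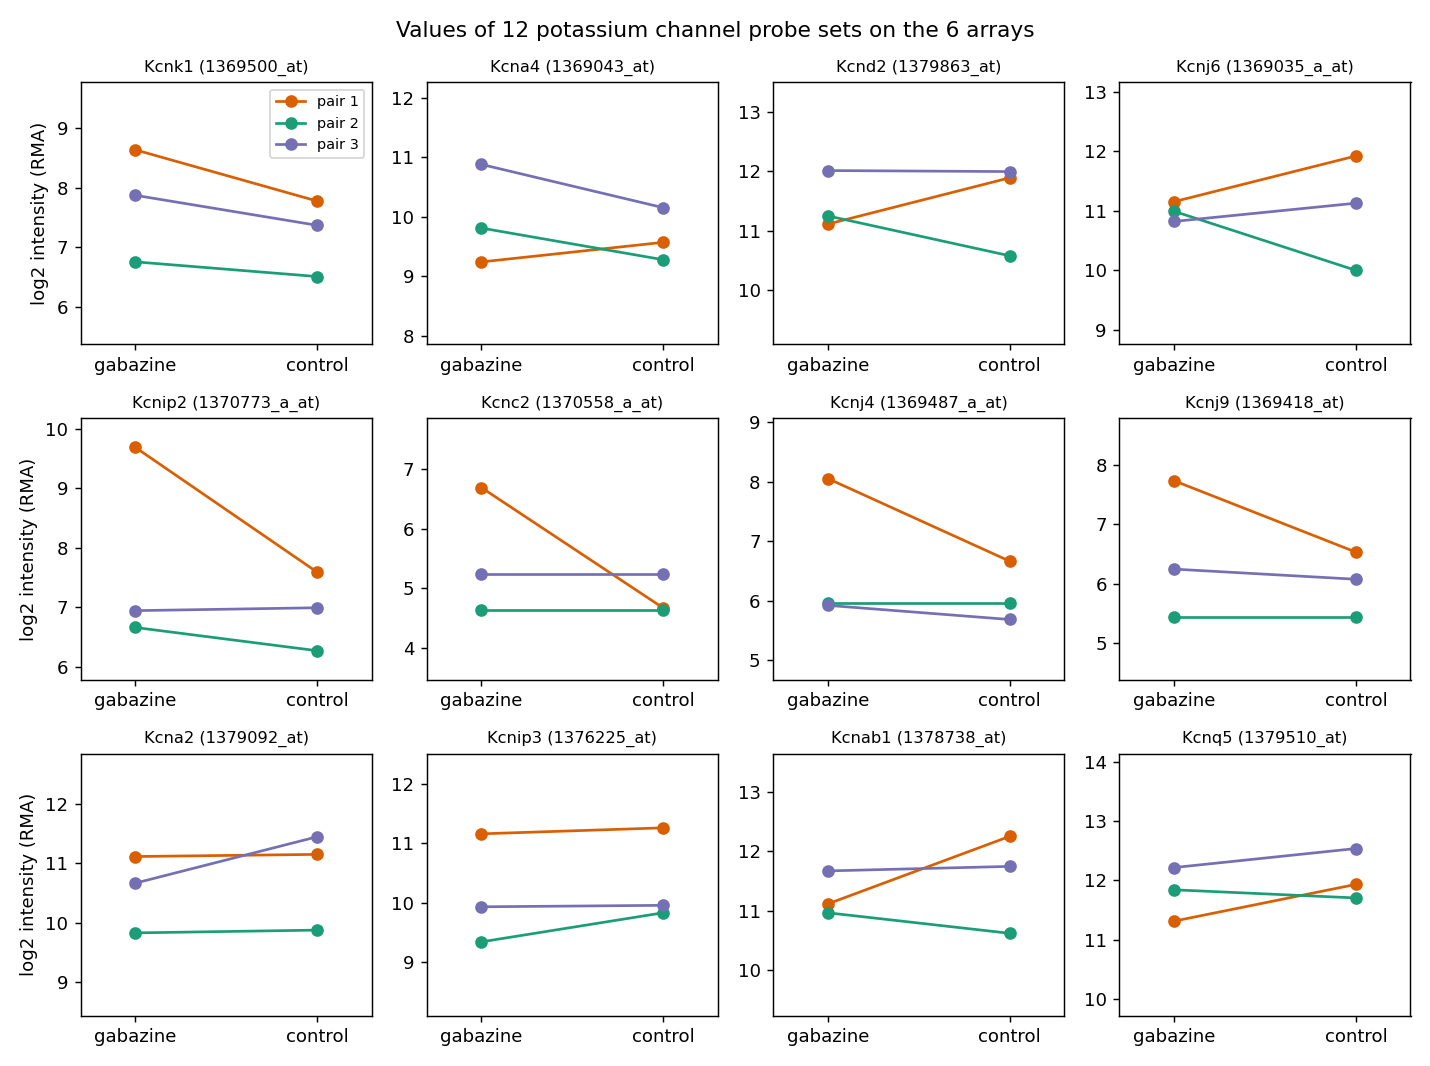
Log2 intensity (vertical axis) of 12 potassium channel probe sets on each array, gabazine left and control right, with a line joining the arrays of 1 pair and each vertical axis spanning the same range. Kcnk1 slopes down from gabazine to control in all 3 pairs, while Kcnip2, Kcnc2, Kcnj4 and Kcnj9 owe most of their difference to pair 1.

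The voltage-gated pore subunits were 24 genes with 39 probe sets, with means above 0 for 22 probe sets and below 0 for 14, and a median of 0.01. Kcna4 (Kv1.4), an A-type channel of axons, had 9.24, 9.81 and 10.88 in gabazine and 9.57, 9.28 and 10.15 in control cultures. Its gabazine value was lower than control in pair 1 and higher in pairs 2 and 3, with log2 ratios of -0.33, 0.53 and 0.73. The mean of 0.31 (standard error 0.27) did not pass (limma adjusted p 0.747). Without pair 1 it was among the members with an unadjusted p under 0.05. Kcna1 (Kv1.1), which sits on axons beside Kcna2, had 11.84, 10.14 and 11.12 in gabazine and 11.98, 10.14 and 10.60 in control cultures. Pair 3 held the largest difference, 0.52, beside -0.14 in pair 1 and a tie in pair 2.

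Kcna2 (Kv1.2) was lower in all 3 pairs on its brighter probe set 1379092_at, with 11.12, 9.83 and 10.67 in gabazine and 11.15, 9.88 and 11.45 in control cultures. The difference was -0.04 and -0.05 in pairs 1 and 2 and -0.78 in pair 3, so that 1 pair carried the mean of -0.29 (standard error 0.21). The dimmer Kcna2 probe set was tied in pairs 1 and 3. Kcna3, known from lymphocytes and microglia, was tied in the same pairs, with a ratio of 0.12 in pair 2. Kcna5, a Kv1 pore of muscle and glia, had ratios of -0.07, 0.09 and 0.00. The 3 probe sets of Kcna6, another Kv1 pore, had ratios between -0.19 and 0.11, and 1 of them was tied throughout.

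The Kcnc subunits (Kv3) allow fast-spiking interneurons to fire at high rates. Kcnc1 had 10.79, 9.46 and 10.30 in gabazine and 11.30, 9.37 and 10.30 in control cultures. It was lower in pair 1, higher by 0.09 in pair 2 and tied in pair 3. Kcnc2 had 6 probe sets, and they did not move together. The brightest, 1370439_a_at, had 10.61, 10.30 and 11.40 in gabazine and 11.11, 10.38 and 11.47 in control cultures, lower in each pair, with a mean log2 ratio of -0.22 (standard error 0.12, limma adjusted p 0.747). The probe set 1370558_a_at had 6.69, 4.63 and 5.25 in gabazine and 4.67, 4.63 and 5.25 in control cultures. Its whole difference of 2.03 was in pair 1, since both other pairs were tied. The remaining 4 Kcnc2 probe sets had ratios from -0.16 to 0.55. Kcnc4 stayed within 0.22 of control on both probe sets.

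Kcnd2 (Kv4.2), the main pore of the dendritic A-type current, had 2 probe sets that went opposite ways in pair 1. The brighter, 1379863_at, had 11.11, 11.25 and 12.01 in gabazine and 11.89, 10.58 and 11.99 in control cultures. The other, 1387476_at, had 9.51, 9.74 and 9.11 in gabazine and 8.72, 9.20 and 9.39 in control cultures. The ratios were thus -0.78, 0.67 and 0.02 on the first and 0.79, 0.54 and -0.28 on the second, and only pair 2 gave the same direction. Kcnd3 (Kv4.3), a second A-type pore, was lower than control in pair 1 on its brighter probe sets, by -0.69 and -0.58, and the third had 0.07. Kcnd1, the remaining Kv4 pore, had ratios of 0.00, -0.03 and 0.07.

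The M-current subunits measured were Kcnq3 and Kcnq5, beside the cardiac and epithelial Kcnq1. The brightest Kcnq5 probe set, 1379510_at, had 11.32, 11.84 and 12.22 in gabazine and 11.93, 11.71 and 12.54 in control cultures. It was lower in pairs 1 and 3 and higher in pair 2, with a mean of -0.27 (standard error 0.18, limma adjusted p 0.747). The other Kcnq5 probe sets had 0.70 and 0.05 in pair 1, and neither was above control in pairs 2 and 3. The Kcnq3 probe sets had ratios between -0.13 and 0.18, and Kcnq1 had -0.17 in pair 1 and ties otherwise. Of the Kcnh genes (the ether-a-go-go family), Kcnh3 was higher in all 3 pairs by small amounts, with 10.42, 9.12 and 10.11 in gabazine and 10.33, 9.07 and 10.06 in control cultures. Its ratios of 0.09, 0.05 and 0.05 gave a mean of 0.06 (standard error 0.03). Kcnh2 (ERG1) had 0.60, -0.05 and 0.02, and the other 6, Kcnh1 and Kcnh4 to Kcnh8, had ratios between -0.15 and 0.07. Kcnb2 (Kv2.2) was tied in every pair.

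The modifier subunits were 7 genes with 10 probe sets, and their median was 0.04. Kcns2, a silent partner of Kv2 channels, had 7.97, 5.09 and 6.21 in gabazine and 6.79, 5.05 and 6.21 in control cultures, so that the difference of 1.18 in pair 1 was not repeated. Kcnv2, a silent partner known from the retina, had ratios of 0.18, 0.11 and 0.0044 on 1 probe set and 0.00, -0.06 and -0.11 on the other. Kcns1, a further silent subunit, had -0.01, -0.15 and 0.16. Kcns3 had -0.23, -0.21 and 0.31, and Kcnv1 0.00, 0.09 and 0.07, both partners of Kv2 pores too. The brightest of the 3 Kcng2 probe sets had -0.20, 0.27 and -0.01, and Kcng3 had 0.37 in pair 1 and ties otherwise.

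The auxiliary subunits were 13 genes with 26 probe sets, with means above 0 for 18 and below 0 for 7, and a median of 0.09. The Kcnip genes encode KChIPs, calcium-binding proteins that bring Kv4 pores to the membrane. Kcnip2 held the highest mean of all members, on probe set 1370773_a_at, with 9.69, 6.66 and 6.94 in gabazine and 7.59, 6.27 and 6.99 in control cultures. Pair 1 contributed 2.10, pair 2 0.39 and pair 3 -0.05, and the mean of 0.81 had a standard error of 0.54 (limma adjusted p 0.747). The brightest Kcnip2 probe set, 1373987_at, had 12.13, 10.98 and 11.66 in gabazine and 12.31, 10.53 and 11.66 in control cultures. It was lower in pair 1, higher in pair 2 and tied in pair 3.

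Kcnip3 (also known as DREAM, a calcium-dependent repressor of transcription) was lower in all pairs on its brighter probe set 1376225_at, with 11.16, 9.34 and 9.93 in gabazine and 11.26, 9.83 and 9.96 in control cultures. Pair 2 gave -0.49, and pairs 1 and 3 gave -0.10 and -0.02. The dimmer Kcnip3 probe set had 0.57 in pair 1 and was tied otherwise. Kcnip1, a KChIP of interneurons, had -0.36, -0.66 and 0.00 on its brightest probe set, the lowest mean of all members (-0.34, standard error 0.16, limma adjusted p 0.747), while the other 2 had 0.60 and 0.00 in pair 1. Kcnip4 had -0.46, 0.18 and -0.07 on the brighter and 0.90, -0.11 and 0.13 on the dimmer probe set.

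The Kcnab genes encode the cytoplasmic beta subunits of Kv1 channels. The 2 probe sets of Kcnab1 went opposite ways in pair 1. Probe set 1378738_at had 11.12, 10.97 and 11.67 in gabazine and 12.25, 10.62 and 11.75 in control cultures, and 1369847_at had 9.49, 7.27 and 8.21 in gabazine and 8.60, 7.27 and 8.18 in control cultures. In pair 1 the first was 1.14 below control and the second 0.89 above, while the ratios of the other pairs were at most 0.34. Without pair 1 the mean of the first turned to 0.13. Kcnab2 had 4 probe sets, of which 1397663_at had 1.70 in pair 1 and ties in pairs 2 and 3, while the brightest had -0.07, 0.47 and 0.29. Kcnab3 had 0.39, -0.09 and 0.19. Kcne1 to Kcne4, single-span partners of Kcnq and other pores, had ratios between -0.45 and 0.31, and 2 of the 3 Kcne2 probe sets carry suffixes that mark probes shared with other transcripts. Kcnmb4, the neuronal beta subunit of the BK channel, had -0.20, 0.22 and 0.00. Kcnmb1, its smooth muscle counterpart, had 0.28 in pair 1 and ties otherwise.

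The inward rectifiers were 15 genes with 26 probe sets, with means above 0 for 16 and below 0 for 10, and a median of 0.05. Kcnj4 (Kir2.3), a strong rectifier of forebrain neurons, was above control in all 3 pairs on its brighter probe set 1371114_at, with 9.89, 9.18 and 10.08 in gabazine and 9.88, 9.15 and 9.74 in control cultures. The ratios were 0.01, 0.02 and 0.34. The dimmer, 1369487_a_at, had 8.06, 5.96 and 5.92 in gabazine and 6.67, 5.96 and 5.69 in control cultures, so that pair 1 gave 1.39, pair 2 a tie and pair 3 0.24. Kcnj12 (Kir2.2) had 0.05, 0.13 and 0.10, with a mean of 0.09 (standard error 0.03), and Kcnj2 (Kir2.1) had 0.15, -0.22 and 0.04. Kcnj15 (Kir4.2) had 6.52, 6.53 and 7.59 in gabazine and 6.38, 6.26 and 7.56 in control cultures on 1369508_at, higher each time by at most 0.26. Its other probe set had 0.20, 0.00 and -0.02.

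Kcnj3, Kcnj6 and Kcnj9 encode the GIRK channels, which G protein-coupled receptors such as the GABA-B receptor open. Kcnj6 (GIRK2) gave the largest ratio of pair 2. Its brightest probe set, 1369035_a_at, had 11.16, 10.99 and 10.82 in gabazine and 11.93, 10.00 and 11.13 in control cultures. It was lower in pair 1, higher in pair 2 and lower in pair 3, with ratios of -0.77, 0.99 and -0.31 and a mean of -0.03 (standard error 0.44). The other 3 Kcnj6 probe sets lay between -0.47 and 0.32. Kcnj9 (GIRK3) had 7.74, 5.44 and 6.25 in gabazine and 6.54, 5.44 and 6.08 in control cultures, with 1.20 in pair 1, a tie in pair 2 and 0.17 in pair 3. The 3 Kcnj3 (GIRK1) probe sets lay between -0.27 and 0.36. Kcnj5, the cardiac GIRK subunit, lay between -0.36 and 0.26. The kidney channel Kcnj1 lay between -0.16 and 0.05, and the neuronal Kcnj14 (Kir2.4) between -0.10 and 0.10.

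The rectifiers known from other cells of the tissue had ratios of at most 0.30 in size. Kcnj10 and Kcnj8 were dim, with means of 5.54 and 6.05 over the arrays, so small ratios there say little about these channels. Kcnj10 (Kir4.1), the potassium-buffering channel of astrocytes, had 6.14, 5.24 and 5.38 in gabazine and 5.83, 5.24 and 5.38 in control cultures, with ties in pairs 2 and 3. Kcnj16, its partner, had -0.04, 0.16 and 0.05 on the brighter probe set and 0.25, 0.06 and -0.17 on the other. Kcnj8, a subunit of the ATP-sensitive channel of pericytes, had 0.00, -0.10 and 0.13, and Kcnj11, the neuronal counterpart, had between -0.73 and 0.71 over 3 probe sets in pair 1. Kcnj13 of the choroid plexus epithelium had 7.57, 6.67 and 7.52 in gabazine and 7.42, 6.70 and 7.49 in control cultures, within 0.16 in each pair. Ttr, the defining transcript of that epithelium, had 4.59, 0.14 and 0.07, and the summed level of the list (6 of 7 genes measured) had log2 ratios of 1.61, 0.27 and -0.27. Its log2 sums ran from 12.01 to 13.64 in gabazine and from 12.03 to 12.28 in control cultures. The list includes Kcnj13 and Kcne2, and the median ratio of its 8 probe sets was 0.01 in pair 1. There Folr1 had 0.59, Enpp2 0.02, Kl 0.00 and the brightest Kcne2 probe set 0.00. Folr1 was thus above control in pair 1 as well, by less than Ttr. Kl and that Kcne2 probe set were tied there at 5.95 and 6.88, and a tie is not a measurement of no change. The part of this epithelium in any ratio of pair 1 was not tested, and in these bulk samples a change in the number of cells and in the RNA per cell cannot be told apart.

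The two-pore channels were 11 genes with 16 probe sets, with means above 0 for 11 and below 0 for 4, and a median of 0.05. Beside Kcnk1, Kcnk3 (TASK-1), an acid-sensitive leak channel, was higher in all pairs on probe set 1398313_a_at, with 6.25, 4.93 and 5.65 in gabazine and 5.95, 4.74 and 5.64 in control cultures. The ratios were 0.30, 0.19 and 0.01, and the other 2 Kcnk3 probe sets had a tie and -0.20 in pair 2. Kcnk2 (TREK-1), opened by stretch and lipids, had 9.62, 9.19 and 9.58 in gabazine and 10.04, 8.59 and 9.58 in control cultures on its brighter probe set. It was lower in pair 1, higher in pair 2 and tied in pair 3. Kcnk10 (TREK-2) had -0.19, 0.00 and -0.13 on the brighter probe set, Kcnk12 (THIK-2) had 0.36, -0.19 and 0.27, and Kcnk9 (TASK-3) had 0.00, 0.05 and 0.07. The remaining Kcnk4 (TRAAK), Kcnk5 (TASK-2), Kcnk6 (TWIK-2) and Kcnk15 (TASK-5) had ratios between -0.31 and 0.36. Kcnk13 (THIK-1), known from microglia, was tied throughout.

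The calcium- and sodium-activated channels were 5 genes with 9 probe sets, the only role with a median of the means below 0 (-0.0079). Kcnma1, the pore of the BK channel, had 10.93, 10.43 and 11.46 in gabazine and 11.63, 10.02 and 11.49 in control cultures on its brightest probe set, with ratios of -0.71, 0.41 and -0.03, and between -0.17 and 0.11 on the others. The small-conductance channels Kcnn1 and Kcnn3, which underlie afterhyperpolarization, had 0.74, -0.07 and 0.00 and 0.02, -0.42 and -0.01. Kcnn4, of blood and immune cells, had 0.50, -0.18 and 0.00. The sodium-activated Kcnt1 (Slack) had probe sets at 0.49, -0.32 and 0.03, at 0.02, -0.45 and 0.00, and tied throughout.

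Bright probe sets shared a direction in pair 1, which was noticed after the values had been seen. The 16 members with a mean level of 10 or more belong to 16 genes, among them Kcnd2, Kcnj6, Kcnq5, Kcnma1, Kcnab1, Kcnip2 and Kcna1. All 16 were below control in pair 1, with a median of -0.35. Of all 8874 probe sets at this level 64.1% were, with a median of -0.10. In pair 2, 11 of the 16 were above control, with a median of 0.20, against 43.8% of all probe sets of that level. In pair 3, 4 were higher, 9 lower and 3 tied, while 53.5% of all probe sets of that level were higher and 37.2% lower. The 23 members with a mean under 6 had 14 ratios above 0 and 3 below 0 in pair 1, against 40.3% above and 22.2% below among all 4622 probe sets of that level. After median centring, quantile normalization and cyclic loess, 16, 14 and 13 of the 16 were below control in pair 1, against 78.3%, 55.6% and 47.0% of all probe sets of that level. In pair 2, 12 were above control each time, against 56.2%, 45.1% and 48.2%. Excitatory neuron markers (6 of 7 genes measured) had log2 ratios of their summed level of -0.18, 0.82 and 0.06 in pairs 1, 2 and 3. Over the 12 probe sets of these markers the median ratio was -0.0026, 0.51 and 0.0091, so the sum in pair 1 was not shared across the list. The log2 sums of these markers ran from 13.74 to 14.45 in gabazine and from 12.92 to 14.63 in control cultures, across pairs of unlike array medians. Their part in the pattern was not tested. By summed level, interneuron markers had 0.21, -0.09 and 0.03, and astrocyte markers -0.08, -0.01 and 0.04. Oligodendrocyte markers had 0.22, 0.31 and -0.0015, and those of meningeal cells and fibroblasts 0.63, 0.45 and -0.45. Microglia markers had -0.17, -0.11 and 0.05, and vascular markers 0.16, -0.19 and -0.02.

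**Figure D3:**
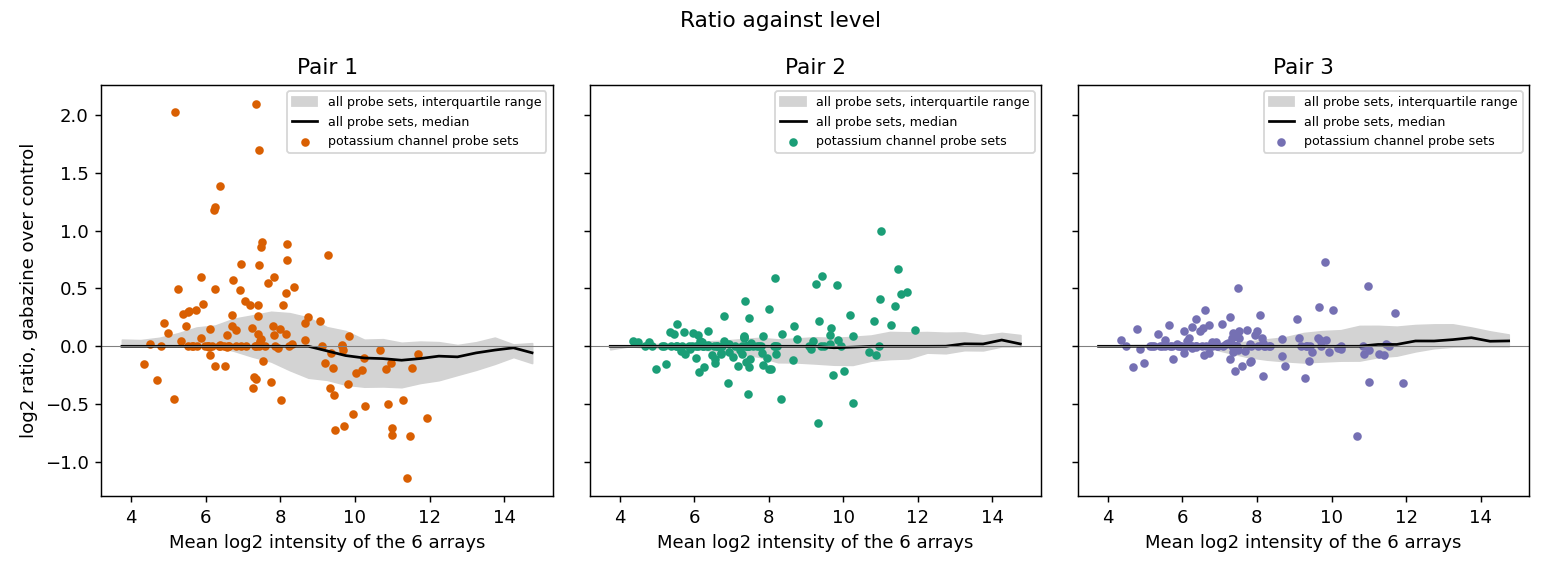
Log2 ratio of gabazine over control (vertical axis) against the mean log2 intensity of the 6 arrays (horizontal axis), in 1 panel a pair, with a point for each potassium channel probe set. The black line is the median and the grey band the interquartile range of all probe sets, and all 16 members at 10 or more lie below 0 in pair 1.

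Probe sets of 1 gene disagreed most in pair 1. For 27 of the 31 genes with several probe sets, the brightest had a lower log2 ratio in pair 1 than the mean of the others, with a median difference of -0.36. Over all 4526 genes with several probe sets this held for 75.9%, also with a median of -0.36. In pair 2 it held for 10 of the 31, against 43.2% of all such genes, and in pair 3 for 20, against 46.3%. The means of the probe sets had opposite signs in 19 of the 31 genes. Kcnc2 spread most, by 0.89 between its highest and lowest mean, followed by Kcnip2 (0.72), Kcnab2 (0.62), Kcnab1 (0.59) and Kcnip1 (0.53).

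**Figure D4:**
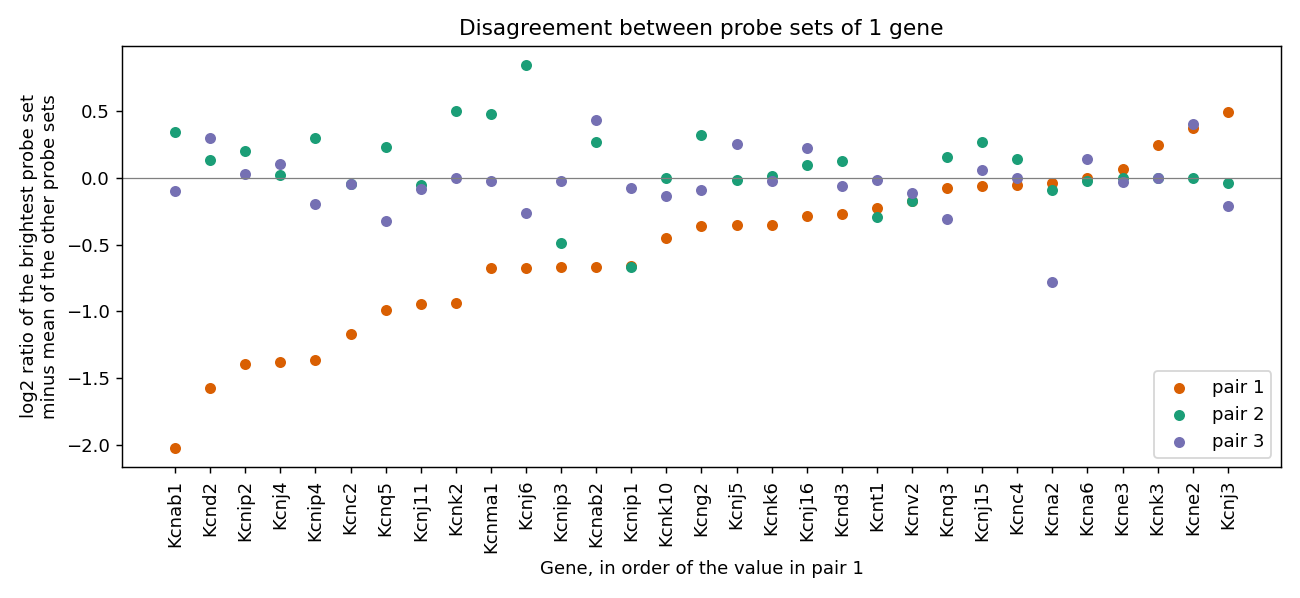
Difference on the log2 scale between the ratio of the brightest probe set and the mean ratio of the other probe sets (vertical axis) for the 31 genes with several probe sets (horizontal axis, in the order of pair 1), with a point for each pair. The points of pair 1 run from -2.02 for Kcnab1 to 0.49 for Kcnj3, and 27 of them are below 0.

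Array control probe sets for the ends of 3 rat transcripts also parted in pair 1. There the log2 ratio was 2.17 at the 5′ end and 0.47 at the 3′ end of beta-actin, 0.53 and 0.03 for Gapdh, and 2.10 and 1.72 for hexokinase. In pair 2 the 5′ ends had -0.14, 0.06 and -0.30, and in pair 3 they had 0.33, 0.06 and 0.00. The part of this difference in the ratios of the potassium channel probe sets was not tested, and where each probe set lies on its transcript was not used here.

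Genes that work with these channels were counted beside them, as 31 measured genes of a list of 37 with 53 probe sets. Of these probe sets 0 passed the adjusted threshold, as did 0% of all probe sets. With an unadjusted p under 0.05 (limma) 1 was above control, against 1.84% of all probe sets, and 0 below, against 2.68%. In all 3 pairs 4 of the 53 were higher, against 6.92%, and 2 lower, against 9.49%. Atp1b3, a beta subunit of the sodium-potassium pump, had 12.87, 11.65 and 12.80 in gabazine and 12.67, 11.46 and 12.62 in control cultures. Its ratios of 0.21, 0.19 and 0.18 had a mean of 0.19 (standard error 0.03, limma adjusted p 0.747). Dpp6, the transmembrane partner of Kv4 pores, had 0.07, 0.72 and 0.24 on its brighter probe set and 1.32, -0.12 and 0.27 on the other. Ank3, the ankyrin that anchors Kcnq channels at the axon initial segment, had -0.15, -0.09 and -0.39 on its brightest. Its other probe sets had 0.58, 0.04 and -0.28, and 0.00, -0.04 and 0.00. Rgs4 had 1.27, -0.08 and 0.92 on its brighter probe set and 2.65, -0.41 and 0.95 on the dimmer. Akap5 had -1.35, 0.05 and -0.29.

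Upstream sequences are shown for the 3 genes with an entry that were higher in all pairs on 1 probe set, since their ratios shared 1 direction, and they were chosen after their values were seen. The promoter table used here (RefSeq, assembly GRCr8) was matched by gene ID for 52 of the 75 genes, and the 250 bases before the start were searched on both strands. The letters TGACG, the core of the cyclic AMP response element, occurred in 11 of the 52 (21.2%), against 19.0% of 27457 promoters. The whole element TGACGTCA occurred in 0 of 52, against 1.7%. The AP-1 letters TGANTCA occurred in 2 (3.85%, against 6.36%), and the EGR letters GCGNGGGCG in 4 (7.69%, against 4.53%). The CArG box was in 0 of 52, against 1.5%, and the MEF2 site in 1 (Kcnj9), against 3.07%. The windows of the 52 genes had a median of 63.4% GC, against 52.0% in all promoters, and the part of this difference in the shares was not tested. The core can lie inside the whole element, and a match is only a run of letters. Kcnj4 (chr7:112954548-112954797, minus strand), Kcnj15 (chr11:48070700-48070949, plus strand) and Kcnv2 (chr1:234412924-234413173, plus strand) hold 1 such core each, which the capitals mark, TGACG or its complement CGTCA:
Kcnj4: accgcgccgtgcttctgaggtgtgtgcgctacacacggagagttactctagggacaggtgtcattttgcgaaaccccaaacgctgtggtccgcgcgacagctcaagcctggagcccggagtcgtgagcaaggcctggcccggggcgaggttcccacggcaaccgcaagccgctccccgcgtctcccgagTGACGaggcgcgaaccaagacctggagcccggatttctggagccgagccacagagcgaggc
Kcnj15: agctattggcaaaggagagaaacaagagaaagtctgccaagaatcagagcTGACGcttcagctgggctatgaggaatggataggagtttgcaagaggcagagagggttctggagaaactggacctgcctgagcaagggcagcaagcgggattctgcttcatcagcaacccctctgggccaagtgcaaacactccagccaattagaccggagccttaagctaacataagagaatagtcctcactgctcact
Kcnv2: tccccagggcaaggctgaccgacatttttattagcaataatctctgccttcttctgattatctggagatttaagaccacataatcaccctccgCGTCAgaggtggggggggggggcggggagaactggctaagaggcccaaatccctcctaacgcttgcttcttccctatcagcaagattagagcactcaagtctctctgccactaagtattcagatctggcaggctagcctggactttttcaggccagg
The core begins 61, 200 and 157 bases before the start in Kcnj4, Kcnj15 and Kcnv2. Kcna2, Kcnc2 and Kcnip3, lower in all pairs on 1 probe set each, have entries without these letters. The core also lies before Kcnab1, Kcnab3, Kcne1, Kcne4, Kcnh8, Kcnj13, Kcnq5 and Kcnt1, which had no probe set of 1 direction in all pairs. Among these, the brightest probe sets of Kcnab1 and Kcnq5 had means of -0.29 and -0.27. Whether the letters go with a direction was not tested.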

How the data were processed

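RNA of 3 gabazine and 3 control cultures was hybridized to Affymetrix RAT2302 arrays. The log2 values were deposited by the authors after RMA, with no version named and without a statement on whether the pairs were normalized together. Array medians differed between pairs, from 7.89 to 8.71, so the deposited levels are not on 1 scale across pairs. All 6 arrays and 31099 probe sets were used with no further scaling, and 0 columns were left out. The platform annotation gives 20832 probe sets 1 symbol, 436 several and 9831 none. Only single symbols were used.

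The difference within each pair was tested with limma 3.58.1 under R 4.3.3. A block stood for the pair, so that the fit has 2 residual degrees of freedom, and eBayes p-values were adjusted by Benjamini-Hochberg for the whole array, at 0.05. The procedure was run on simulated data without ties and with the same noise in all pairs. Such data cannot show how the test behaves with the ties and the wider spread of pair 1. Pairing follows the methods, in which a replica is set against its own control. Paired arrays deviated together from their group means (correlations of 0.794, 0.664 and 0.853). With 3 pairs, the smallest p of an exact sign-flip test is 0.25.

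Named were, per role, the extremes among members of 1 direction and the widest range between pairs, the 10 highest and 10 lowest means, the 5 genes with the widest spread between probe sets, and genes known in hippocampus. Others were named to account for all members. The members, lists and rules were chosen with earlier results of these data known. Alternatives were no block, each pair left out, 3 scalings, leaving out the dimmest 40% or the tied probe sets, another eBayes prior, the arithmetic mean of ratios, and 1 value per gene. The number of arrays limits the precision.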

Additional observations from a re-analysis of the deposited data

How the results depend on the processing

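The count of members past the adjusted threshold was 0 in both directions under every alternative run, with a lowest adjusted p between 0.679 and 1 over the alternatives. The fit without the replicate block called 14 probe sets of the array higher, none of them a member, and it had 0 members at an unadjusted p under 0.05. That count of higher members was also 0 with the dimmest 40% left out, which removes Kcnk1, and ran from 1 to 3 with 1 pair left out. The count of lower ones ran from 0 to 1. Over all probe sets, counts at that unadjusted level were not taken under these alternatives. Without pair 1 the members at that level were Kcna4, Kcna6 and Kcnj12, without pair 2 Kcng2, Kcnk12 and Kcnq3, and without pair 3 Kcnd2 and Kcns3.

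Members higher in all pairs numbered 18 to 25 with 1 pair left out, where only 2 pairs must match. They numbered 23 after median centring, 17 after quantile normalization, 25 after cyclic loess and 2 of 51 with the dimmest 40% left out. Members lower in all pairs numbered 8 to 15 with 1 pair left out and 13 after quantile normalization. Shares of all probe sets are given above for the scalings only. They were not counted with 1 pair or the dimmest 40% left out, so those counts are no result about the members. Members tied in at least 1 pair numbered 78 in the deposited values and 0, 2 and 0 after the 3 scalings in that order. Ties that took a direction from the scaling thus enter the counts after scaling. The median log2 ratio ran from 0.0094 to 0.035 with 1 pair left out. It was 0.0073 after median centring, 0.00998 after quantile normalization, 0.019 after cyclic loess, 0.013 without the dimmest 40% and 0.038 without tied probe sets. With the brightest probe set of each gene it was 0.0095, and with their mean 0.014.

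Of members with a mean of 9 or more, a limit chosen after seeing the data, 26 of 32 were lower in pair 1, against 61.6% of all probe sets at that level, and 20 were higher in pair 2, against 41.1%. Leaving out 1 pair moved the mean of Kcnab1 probe set 1378738_at between -0.61 and 0.13, and without pair 1 the Kcnab2 and Kcnc2 probe sets with the largest ratios were at 0.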
